A study of Mus musculus with 12 samples.

Results

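The nucleosome remodelling and deacetylase (NuRD) complex was examined through 10 genes chosen by name: Mbd2 and Mbd3 (methyl-CpG binding domain proteins), Mta1, Mta2 and Mta3 (scaffold subunits), Chd4 (the ATP-dependent remodeller), Hdac1 and Hdac2 (histone deacetylases), and Gatad2a and Gatad2b (subunits that bridge the MBD protein to the remodeller). They are 10 of 51467 genes in the count table, and all 10 were among the 14033 genes with enough reads to be tested. Wild-type mouse embryonic stem cells (ESCs) and ESCs lacking Dgcr8 (Dgcr8 KO) were compared to ask how transcripts change when microRNAs are lost, since Dgcr8 is needed to make most of them. All cells, controls included, were grown with serum, LIF and the inhibitors PD0325901 and CHIR99021 (2i) and were labelled with 500 uM 4-thiouridine (4sU) for 30 min before lysis. The RNA was then divided into rRNA-depleted total RNA, which measures steady-state levels, and 4sU RNA captured after biotinylation, which measures nascent transcription. There were 3 libraries for each of wild-type total, wild-type 4sU, Dgcr8 KO total and Dgcr8 KO 4sU. The titles and genotype labels of the knockout samples read DGCR8 KO, while their source names read DDX8KO, and the groups follow the titles. The knockout cells carry 1 genotype label with no clone named, so a difference between genotypes cannot be told apart from a difference between the cell lines, and nothing in the labels says that the 3 replicates were independent cultures. The p-values therefore measure the spread between these samples only.

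NuRD joins a remodeller and a histone deacetylase in a single complex and represses or tunes transcription at promoters and enhancers. MBD2 binds methylated CpGs, while mammalian MBD3 binds them poorly, and the MBD proteins occupy the complex in a mutually exclusive way, as paralogues of the other subunits often do. In ESCs the MBD3 form of the complex is known for its part in leaving the pluripotent state.

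Total counts ranged from 4593914 to 9295245 per library. Levels are given as CPM, counts scaled to library size (TMM factors), and ± is the SD over 3 libraries. The table has no usable spike-in, so all values are relative to the rest of the RNA, and in bulk RNA fewer cells of a type and less RNA per cell cannot be told apart. Dgcr8 total RNA was 101, 111 and 92.5 CPM in wild-type and 33.6, 34.1 and 32.0 CPM in the libraries labelled Dgcr8 KO, a log2 difference of -1.60 (SE 0.0848, adjusted p = 6.63e-17 by limma), lower in all 3 libraries as labelled, although reads from the gene were still counted. All 8 ESC markers (among them Pou5f1, Nanog and Esrrb) were over 3 CPM in every group. Their summed level was 5060 to 5170 CPM in wild-type and 5000 to 5060 CPM in Dgcr8 KO total RNA. In 4sU RNA it was 5460 to 5550 CPM in wild-type and 6180 to 6840 CPM in Dgcr8 KO. The total RNA sum joins changes in both directions. At an adjusted p under 0.05 by limma, 3 markers were higher and 5 lower, beside 27.2% and 36.7% of all tested genes. Of 6 fibroblast feeder markers, 1 exceeded 3 CPM in a library, and their sum was 11 to 13.3 CPM in wild-type and 5.45 to 6.93 CPM in Dgcr8 KO total RNA. The summed level of 4 primed epiblast markers was 131 to 144 CPM in wild-type and 89.2 to 93.4 CPM in Dgcr8 KO total RNA, but 66.1 to 70.1 and 73.4 to 82.4 CPM in 4sU RNA. Within that list Otx2 was higher in Dgcr8 KO in both kinds of RNA, Dnmt3b and Pou3f1 were lower in both, and Fgf5 was too low to test. The sum of 7 endoderm and trophoblast markers was 18.9 to 20.4 CPM in wild-type and 15.2 to 18 CPM in Dgcr8 KO total RNA. The part of these shifts in the changes below was not tested.

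The microRNAs that Dgcr8 loss removes include the ESC-specific cell cycle (ESCC) family, the most abundant in ESCs. Its members share the seed AAGUGC. Those shown carry AAGUGCU at bases 2 to 8 (in capitals), the letters that targets were read against here (RefSeq, GRCm38.p6). With the same AAGUGC but another base 8, mmu-miR-290a-3p (AAGUGCC) and mmu-miR-291b-3p (AAGUGCA) are not shown.
mmu-miR-291a-3p: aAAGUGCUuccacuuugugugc
mmu-miR-294-3p: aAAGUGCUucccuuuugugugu
mmu-miR-295-3p: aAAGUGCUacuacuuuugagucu
mmu-miR-302b-3p: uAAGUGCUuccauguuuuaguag
mmu-miR-302d-3p: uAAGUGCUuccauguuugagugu

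The matching 3′ UTR letters on the transcribed strand are AGCACTT (the whole seed) and GCACTTA (the hexamer GCACTT followed by A), and the 8-base form joins both. Of the 10 genes, 3 held a 7-base match in their longest annotated 3′ UTR: Mbd2, Gatad2b and Hdac2. Among 11821 tested protein-coding genes with a 3′ UTR, 22.3% held one. The 8-base match was present in Mbd2 and Gatad2b, and in 3.79% of those 11821 genes. Gatad2a held the hexamer GCACTT alone, which 35.5% of those genes carried, and the other 6 members (Mbd3, Mta1, Mta2, Mta3, Chd4 and Hdac1) held none of these letters in that window. The sites of Gatad2b, Hdac2 and Gatad2a are shown with 10 bases on each side, and that of Mbd2 is given by position only, in mm10 on the strand of the transcript, with the match in capitals.
Gatad2b, chr3:90358584-90358610 (plus strand): gatgttgagtGCACTTAacctgagttg
Gatad2b, chr3:90359674-90359699 (plus strand): aagtaagaagGCACTTttaaaattac
Gatad2b, chr3:90359906-90359933 (plus strand): aaatgtattgAGCACTTAataaaggagc
Hdac2, chr10:36994377-36994402 (plus strand): ttagcttggcGCACTTtattctatca
Hdac2, chr10:36995282-36995308 (plus strand): ttcagttaacAGCACTTtcatgtgggc
Gatad2a, chr8:69909291-69909316 (minus strand): catacacagtGCACTTgggcaggctc

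Which annotated 3′ UTR is used decides whether these sites are present. Gatad2b carried its 3 matches in 1 of 4 annotated transcripts with a 3′ UTR, the one with a 3′ UTR of 5405 bases, against 77 bases in the shortest. Hdac2 carried its matches in 1 of 2, with 2153 bases against 330 bases. The Mbd2 match lay at chromosome 18, 70625940 to 70625947, in the 480-base 3′ UTR of 1 of 3 transcripts. Gatad2a carried its hexamer in all 4. The counts are per gene and do not tell these transcripts apart. A match is a description of letters and not a measured site.

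The 10 transcripts were present at unequal levels. Compared per length, as CPM per kb of exon, they spanned 15.6-fold in wild-type total RNA and 4.7-fold in wild-type 4sU RNA. Chd4 was highest in wild-type total RNA at 155 ± 5.17 CPM per kb, followed by Mta2 at 105 ± 0.335, Hdac2 at 72.4 ± 1.12 and Gatad2a at 62.8 ± 5.32 CPM per kb. Mta3 and Mbd3, at 33.7 ± 1.92 and 33.7 ± 2.99 CPM per kb, overlapped in range, and every other pair of neighbours in this order was apart. Mbd2 was lowest, at 9.92 ± 0.365 CPM per kb, just under Gatad2b at 12.1 ± 0.407. The length used is that of the counted exons of a gene, 2449 bases for Mbd2 and 7701 for Gatad2b. The order and the paralogue shares per kb thus depend on which annotated transcripts are present, which the counts do not tell. Without division by length, Mbd2 had 24.3 and Gatad2b 93.1 CPM in wild-type total RNA. In wild-type 4sU RNA the order differed: Mta2 (50.2 ± 5.02 CPM per kb) and Gatad2a (49.2 ± 0.558) led and overlapped, and Mbd3 came next at 44.4 ± 2.49. In Dgcr8 KO total RNA the span narrowed to 7.9-fold. Gatad2b became the lowest at 17.3 ± 0.572 CPM per kb, while Mbd2 stood at 22.8 ± 1.43 and overlapped both Hdac1 (22.9 ± 1.7) and Mta1 (21.9 ± 1.29).

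**Figure D1:**
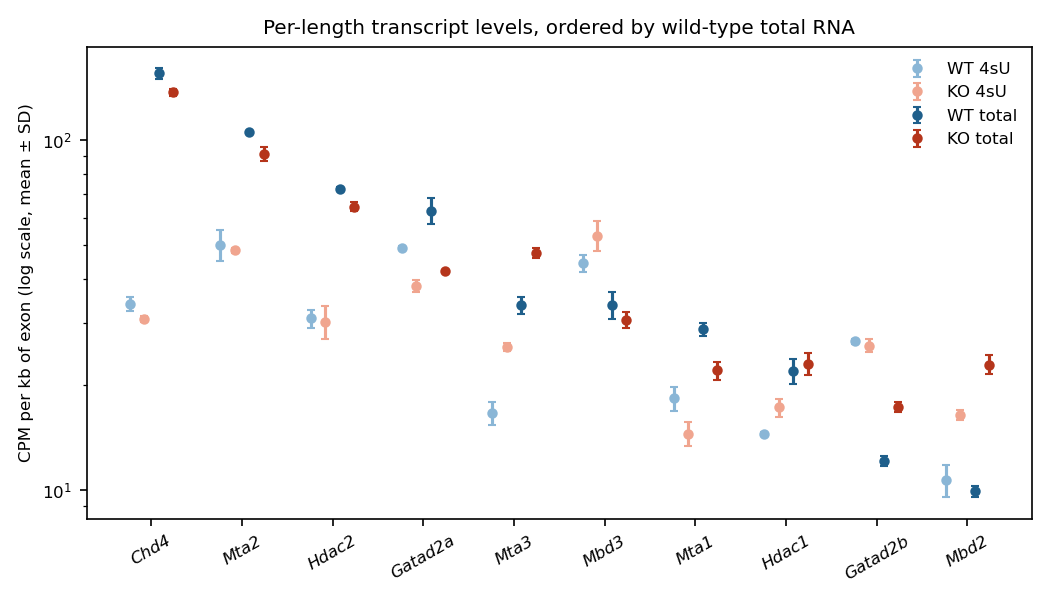
Mean CPM per kb of exon on a log axis (bars: SD, n = 3) for the 10 genes in wild-type (WT) and Dgcr8 KO (KO) 4sU and total libraries, ordered by the level in wild-type total RNA. Chd4 is highest and Mbd2 lowest in wild-type total RNA, at 155 and 9.92 CPM per kb.

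In total RNA, Mbd2, Mta3 and Gatad2b were higher in Dgcr8 KO and Mta1, Mta2, Chd4, Hdac2 and Gatad2a were lower, at an adjusted p under 0.05 by limma. These 8 of 10 compare with 63.9% of all tested genes (3 higher beside 27.2%, 5 lower beside 36.7%). Only Mbd2 also changed by more than 1 on the log2 scale, a call that 17.2% of tested genes met. The wild-type and Dgcr8 KO libraries did not overlap for the same 8 genes, against 68.8% of tested genes. In 4sU RNA, Mbd2, Mbd3, Mta3 and Hdac1 were higher and Mta1, Chd4 and Gatad2a lower, 7 of 10 beside 56.3% of tested genes (4 higher beside 28.3%, 3 lower beside 28%). The libraries did not overlap for those 7, against 59% of tested genes. The total to 4sU ratio, a relative measure of RNA stability, rose for Mbd2 and Gatad2b and fell for Mbd3, 3 of 10 beside 16.1% of tested genes (2 higher beside 5.02%, 1 lower beside 11.1%). No member changed by more than 1 in 4sU RNA or in stability, where 14.8% and 1.76% of tested genes did. Each count lay within 2 genes of the number the background share gives. Among 10 genes a small share such as 5.02% gives few or none, so this closeness cannot decide whether the list stands apart. A difference of the list from other genes was not tested. The median change of the 10 was -0.16 in total RNA, -0.04 in 4sU RNA and -0.14 in stability, beside -0.09, -0.02 and -0.09 over all tested genes. The stability change is computed from the same libraries as the other comparisons, so the 3 are not independent of each other. When the total RNA change was taken relative to the median gene, 5 of the 10 passed rather than 8, with 3 higher and 2 lower: Mta2, Chd4 and Hdac2 no longer passed. With DESeq2's size factors the stability calls were 2 higher and 0 lower, without Mbd3.

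**Figure D2:**
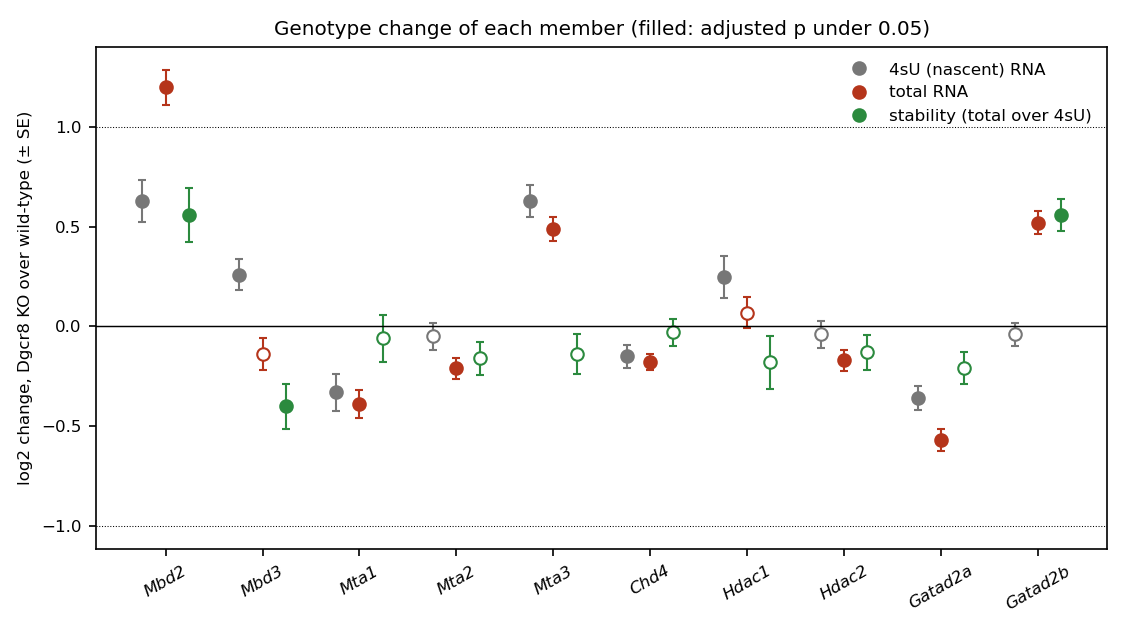
Log2 change of each gene in Dgcr8 KO over wild-type ESCs in 4sU RNA (grey), total RNA (red) and stability (green), with limma SE; filled points passed an adjusted p under 0.05 and dotted lines mark a log2 difference of 1 either way. Mbd2 in total RNA, at 1.20, is the only point beyond the dotted lines, and Gatad2b moves in total RNA and stability with 4sU RNA near 0.

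Mbd2 (ENSMUSG00000024513.16, mm10 chromosome 18, 70568189 to 70626131, plus strand), the methylated-CpG reader of NuRD, had 25.0, 23.3 and 24.6 CPM in wild-type and 51.8, 58 and 57.7 CPM in Dgcr8 KO total RNA. All 3 Dgcr8 KO libraries lay above all 3 wild-type libraries. The log2 change was 1.20 (SE 0.087), or 2.29-fold (adjusted p = 1.69e-13 by limma). In 4sU RNA it had 24.1, 29.3 and 24.9 CPM in wild-type and 40.8, 40.8 and 38.6 CPM in Dgcr8 KO, again without overlap. That log2 change was 0.63 (SE 0.104, adjusted p = 4.84e-06 by limma). The difference between them, the stability change, was 0.56 (SE 0.135, adjusted p = 0.00344 by limma). Mbd2 thus rose both in nascent RNA and in the total to 4sU ratio, and no other member passed upward in both. Its stability change stood at percentile 93.9 of all tested genes, and at percentile 83.3 of the 448 genes with the 8-base match, whose median stability change was 0.16 against -0.10 in the other genes.

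Mbd3 (ENSMUSG00000035478.14, mm10 chromosome 10, 80392539 to 80399550, minus strand), the other MBD subunit, did not follow Mbd2. Its total RNA was 62.3, 57.9 and 69 CPM in wild-type and 55.2, 55.8 and 60.9 CPM in Dgcr8 KO, with overlapping ranges. The log2 change of -0.14 (SE 0.0803) did not pass (adjusted p = 0.124 by limma). In 4sU RNA it had 83.2, 78.2 and 87.5 CPM in wild-type and 107, 103 and 88.5 CPM in Dgcr8 KO, all above wild-type but with Dgcr8 KO replicate 3 close to it. It rose there by 0.26 in log2 (SE 0.0793, adjusted p = 0.00647 by limma), and its stability changed by -0.40 (SE 0.113, adjusted p = 0.0128 by limma). The stability call was lost without Dgcr8 KO replicate 1 (-0.33, adjusted p = 0.0975 by limma) or replicate 2 (-0.36, adjusted p = 0.0747 by limma), and with DESeq2 (-0.32, adjusted p = 0.0931) or DESeq2's size factors in limma (-0.31, adjusted p = 0.0668). It was also lost relative to the median change (-0.31, adjusted p = 0.0655 by limma) and with no filter beyond 1 count (-0.38, adjusted p = 0.0982 by limma). Without wild-type replicate 2, the total RNA of Mbd3 also passed, at -0.22 (adjusted p = 0.0307 by limma).

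The share of Mbd3 in the MBD pair was lower in all Dgcr8 KO libraries of both kinds of RNA. Mbd3 made up 76.6%, 76.5% and 78.6% of the counts per kb of the pair in wild-type total RNA and 58.2%, 55.8% and 58% in Dgcr8 KO, a difference of -19.9 percentage points. In 4sU RNA the share was 80.6% ± 2.45 in wild-type and 76.4% ± 1.29 in Dgcr8 KO (SD, n = 3), a difference of -4.16 points. Neither set of libraries overlapped, and each gave p = 0.1 in the exact two-sided permutation test. In 4sU RNA the groups nearly met, with wild-type replicate 2 at 77.8% and Dgcr8 KO replicate 1 at 77.5%. A p of 0.1 is the smallest that 3 against 3 can give, so no share could pass 0.05, and the Benjamini-Hochberg value over the 14 shares tested was 0.108. The summed level of the pair was 43.7 ± 3.24 CPM per kb in wild-type and 53.4 ± 2.74 in Dgcr8 KO total RNA.

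The MTA subunits hold the complex together and bring in the deacetylases. Mta3 (ENSMUSG00000055817.17, mm10 chromosome 17, 83706163 to 83814905, plus strand) had 98.5, 109.7 and 101 CPM in wild-type and 143, 142 and 151 CPM in Dgcr8 KO total RNA. The groups did not overlap, and Mta3 rose by 0.49 in log2 (SE 0.0598, adjusted p = 1.48e-08 by limma). Its 4sU RNA, at 53.1, 52.9 and 46.2 CPM in wild-type and 76.0, 79.5 and 79.6 CPM in Dgcr8 KO, rose by 0.63 (SE 0.0808, adjusted p = 7.28e-08 by limma). The stability difference was -0.14 (SE 0.1) and did not pass (adjusted p = 0.395 by limma). Mta1 went the other way. It had 79.9, 79.1 and 85.2 CPM in wild-type and 65.6, 62.4 and 58.3 CPM in Dgcr8 KO total RNA, a log2 difference of -0.39 (SE 0.0704, adjusted p = 1.46e-05 by limma). In 4sU RNA it had 47.1, 55.4 and 52.5 CPM in wild-type and 42.6, 43.1 and 37.3 CPM in Dgcr8 KO, lower in each knockout library (-0.33, SE 0.0931, adjusted p = 0.00354 by limma). Mta2, the most abundant of these paralogues, had 331, 329 and 330 CPM in wild-type and 283, 299.9 and 274 CPM in Dgcr8 KO total RNA, a small fall (-0.21, SE 0.0526, adjusted p = 0.000882 by limma). Its 4sU RNA overlapped between genotypes (-0.05, SE 0.0656, adjusted p = 0.515 by limma).

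Within the MTA family, Mta3 took 20.1% ± 1.01 of the counts per kb in wild-type and 29.6% ± 1.6 in Dgcr8 KO total RNA (SD, n = 3), with nearly the same shift in 4sU RNA, from 19.6% ± 2.17 to 29% ± 0.702. Mta1 took 17.1% ± 0.656 in wild-type and 13.7% ± 0.719 in Dgcr8 KO total RNA, and Mta2 took 62.7% ± 0.743 and 56.7% ± 1.4. The libraries did not overlap for these 4 comparisons, and each exact permutation p was 0.1. The ranges of the Mta2 share in 4sU RNA overlapped (exact permutation p = 0.2). Shares of 1 family sum to 100%, so the MTA shares are tied to each other, and 68.8% of all tested genes in total RNA and 59% in 4sU RNA also had groups that did not overlap. The family sum was 168 ± 1.5 CPM per kb in wild-type and 161 ± 3.51 in Dgcr8 KO total RNA.

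**Figure D3:**
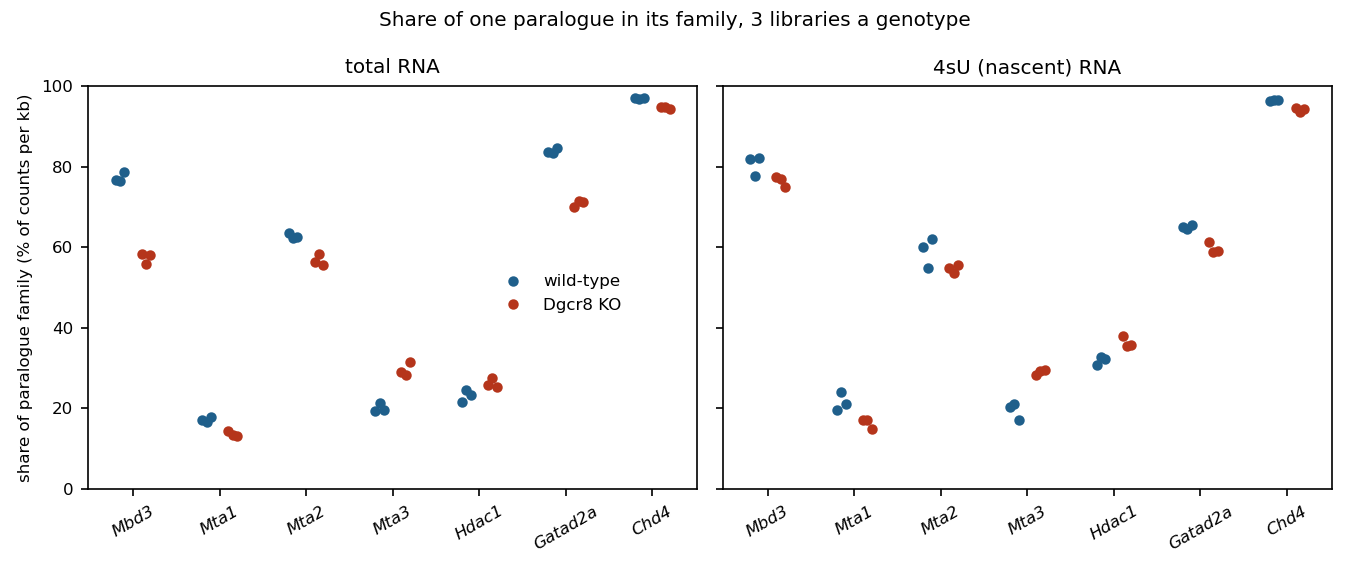
Share of the named paralogue in the summed counts per kb of its family (Mbd2 and Mbd3; Mta1, Mta2 and Mta3; Hdac1 and Hdac2; Gatad2a and Gatad2b; Chd3 and Chd4), each point 1 library, in total RNA (left) and 4sU RNA (right). The Mbd3 share in total RNA falls from a mean of 77.2% to 57.3% and the Gatad2a share from 83.8% to 70.9%, each by more than in 4sU RNA.

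The GATAD2 subunits link the MBD protein to the remodeller, and the pair moved in opposite directions in total RNA. Gatad2b (ENSMUSG00000042390.9, mm10 chromosome 3, 90293178 to 90363407, plus strand) had 90.2, 92.5 and 96.4 CPM in wild-type and 138, 130 and 132 CPM in Dgcr8 KO total RNA, without overlap. It rose by 0.52 in log2 (SE 0.0587), or 1.43-fold (adjusted p = 3.73e-09 by limma). Its 4sU RNA was 207, 207 and 200.5 CPM in wild-type and 193, 209 and 196 CPM in Dgcr8 KO. These ranges overlapped (-0.04, SE 0.0556, adjusted p = 0.548 by limma). Stability rose by 0.56 (SE 0.0808, adjusted p = 7.75e-06 by limma), at percentile 93.8 of all tested genes and 83.0 of the 448 genes with the 8-base match. Gatad2b was therefore the only member whose total RNA rose while its 4sU RNA did not pass. An annotated gene, 4930537H20Rik, overlaps its exons on the opposite strand, and the reads were counted by strand.

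Gatad2a (ENSMUSG00000036180.15, mm10 chromosome 8, 69907076 to 69996384, minus strand) had 322, 325 and 373 CPM in wild-type and 227, 229.8 and 229 CPM in Dgcr8 KO total RNA. Every knockout library was lower, and the log2 change was -0.57 (SE 0.0534, adjusted p = 5.62e-11 by limma). In 4sU RNA it had 269.6, 264 and 267 CPM in wild-type and 214, 209 and 198 CPM in Dgcr8 KO, a log2 difference of -0.36 (SE 0.0595, adjusted p = 4.6e-06 by limma). The stability difference was -0.21 (SE 0.0799, adjusted p = 0.0742 by limma). It passed, at the same size, only when same-numbered total and 4sU libraries, taken to share a divided RNA sample, were treated as a pair (adjusted p = 0.032 by limma). The Gatad2a share of the pair was 83.5%, 83.3% and 84.6% in wild-type and 70.0%, 71.5% and 71.2% in Dgcr8 KO total RNA, a difference of -12.9 points. In 4sU RNA the difference was -5.24 points. Each exact permutation p was 0.1, the smallest possible. The family sum was 74.9 ± 5.71 CPM per kb in wild-type and 59.5 ± 0.341 in Dgcr8 KO total RNA.

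Chd4, the remodeller, had 1054, 1001 and 1067 CPM in wild-type and 909.5, 905.5 and 940.1 CPM in Dgcr8 KO total RNA. The groups did not overlap, but the difference was small (-0.18, SE 0.0398, adjusted p = 0.000205 by limma). Its 4sU RNA was 225, 220 and 241 CPM in wild-type and 211, 203 and 206 CPM in Dgcr8 KO (-0.15, SE 0.0562, adjusted p = 0.0268 by limma). The 4sU call held in 9 of 15 alternatives. It was lost without wild-type replicate 3 (-0.11, adjusted p = 0.112 by limma) or without any 1 of the Dgcr8 KO replicates (adjusted p of 0.056, 0.128 and 0.101 by limma without replicates 1, 2 and 3). Scaling by library size alone (-0.12, adjusted p = 0.0754 by limma) and no filter beyond 1 count (-0.13, adjusted p = 0.273 by limma) also ended it. Chd4 held 96.9% ± 0.125 of the counts per kb of Chd3 and Chd4 in wild-type and 94.6% ± 0.238 in Dgcr8 KO total RNA (SD, n = 3; exact permutation p = 0.1).

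The deacetylases showed small changes. Hdac2 had 308, 309.8 and 301 CPM in wild-type and 264, 275 and 279 CPM in Dgcr8 KO total RNA. The libraries did not overlap (-0.17, SE 0.0543, adjusted p = 0.00767 by limma), but the call was lost with DESeq2 (-0.14, adjusted p = 0.0503) and with scaling by library size alone (-0.12, adjusted p = 0.0658 by limma). Its 4sU RNA was 139, 124 and 129.5 CPM in wild-type and 113, 132 and 139 CPM in Dgcr8 KO, with overlap (-0.04, SE 0.0699, adjusted p = 0.644 by limma). Its stability difference of -0.13 (SE 0.0885) did not pass (adjusted p = 0.367 by limma). The longer of its annotated 3′ UTRs holds a 7-base match. The median stability change was 0.03 in tested genes with such a match and -0.13 in those without. A part of the match in the Hdac2 values was not tested. Hdac1 had 41.1, 48.3 and 43.9 CPM in wild-type and 43.9, 50.6 and 45.8 CPM in Dgcr8 KO total RNA, which overlapped (0.07, SE 0.0793, adjusted p = 0.482 by limma). Its 4sU RNA was 29.8, 29.1 and 29.5 CPM in wild-type and 33, 35.1 and 37.1 CPM in Dgcr8 KO (0.25, SE 0.105, adjusted p = 0.0431 by limma). That call was lost in 9 of 15 alternatives, among them leaving out any 1 of the wild-type replicates (adjusted p of 0.0853, 0.0786 and 0.0857 by limma), Dgcr8 KO replicate 2 (0.0688) or Dgcr8 KO replicate 3 (0.119). The Hdac1 share of the pair was 23.1% ± 1.39 in wild-type and 26.2% ± 1.23 in Dgcr8 KO total RNA (SD, n = 3; exact permutation p = 0.1).

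**Figure D4:**
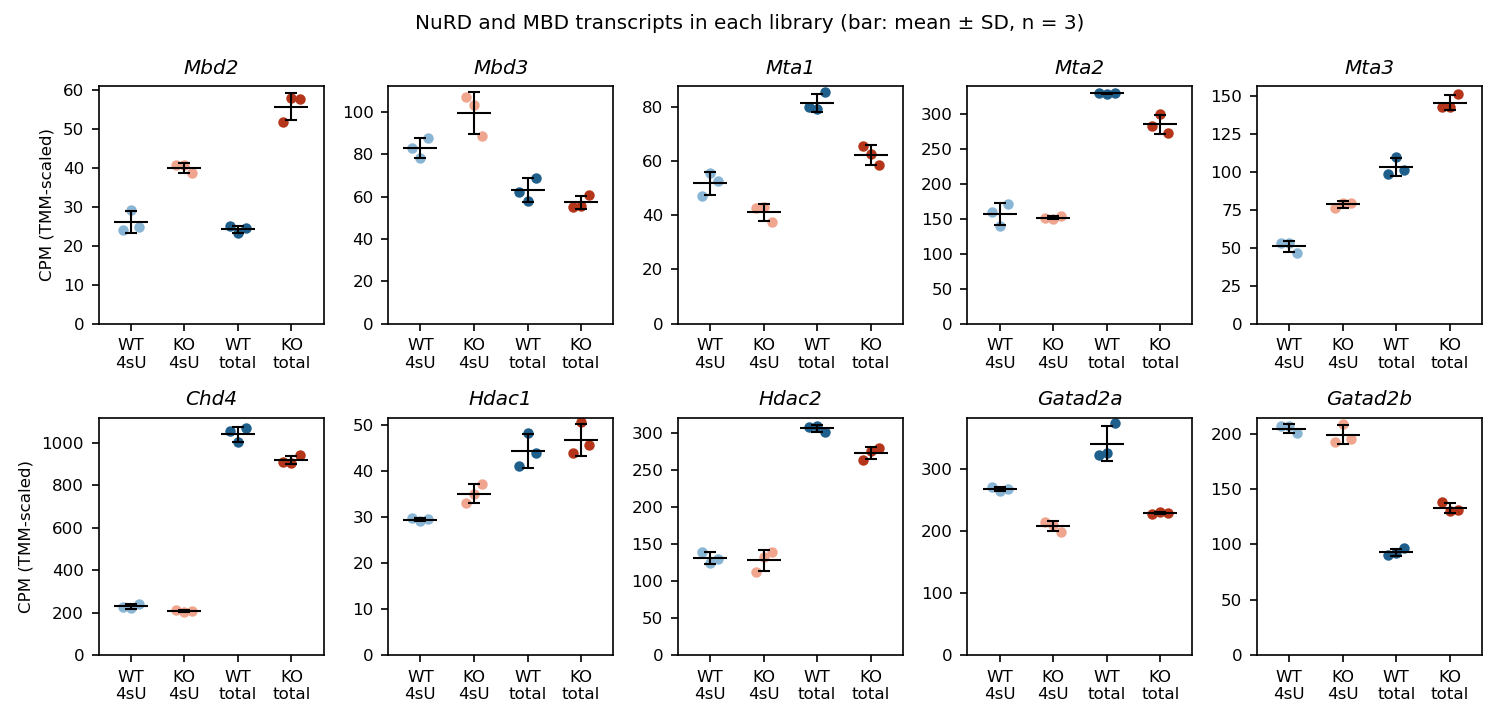
CPM of each gene in every library (points), with the mean and SD of 3 libraries (black), for wild-type (WT) and Dgcr8 KO (KO) 4sU and total RNA; each panel starts at 0 and has its own scale. Mbd2 total RNA rises from 24.3 to 55.9 CPM, and Gatad2b total RNA rises from 93.1 to 133 CPM with its 4sU RNA at 205 and 199 CPM.

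The 10 transcripts also differed in their total to 4sU ratio within a genotype. In wild-type cells, on a log2 scale relative to the median tested gene, Chd4 had the highest ratio of the 10 at 2.10 (SE 0.048), at percentile 98.6 of 11884 protein-coding genes. Hdac2 (1.14), Mta2 (0.98) and Mta3 (0.94) followed, at percentiles 82.4, 77.9 and 76.2. Mbd2 (-0.18), Mbd3 (-0.48) and Gatad2b (-1.22) lay under the median gene, Gatad2b at percentile 12.4. In Dgcr8 KO, Mbd2 moved to 0.47 (percentile 59.2) and Gatad2b to -0.58 (percentile 25.7), while Mbd3 moved to -0.80 (percentile 20.8). For the other 7 the values in the genotypes differed by at most 0.13, and Chd4 was at 2.15. The median of the 10 in wild-type was 0.54. The place of the median gene depends on which genes are kept: with no filter beyond 1 count, Mbd2 (0.39) and Mbd3 (0.08) lay above it and Gatad2b (-0.65) below, and with at least 3 CPM required in all 12 libraries Gatad2a fell just under it (-0.02).

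**Figure D5:**
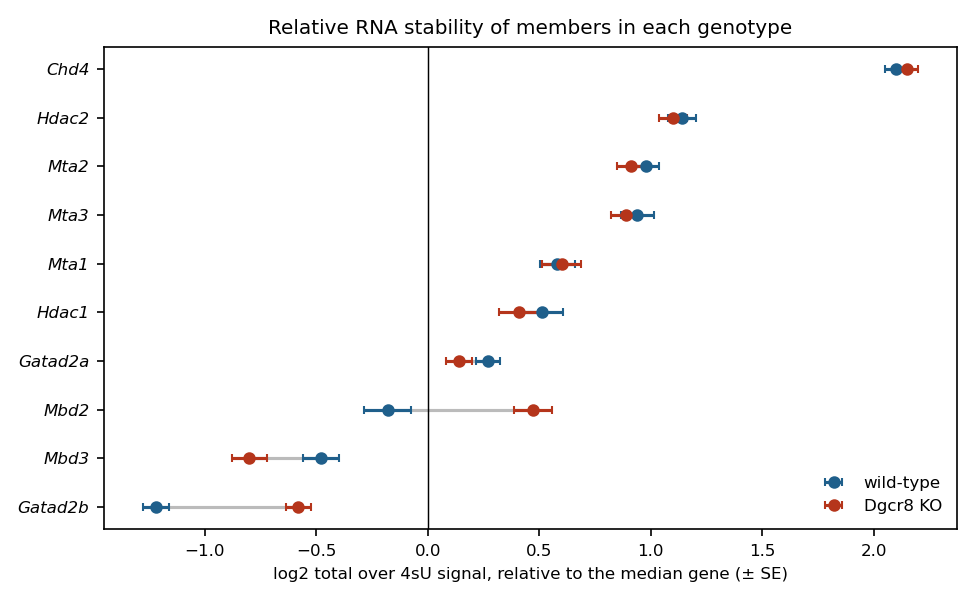
Log2 ratio of total to 4sU signal of each gene relative to the median tested gene (bars: limma SE) in wild-type (blue) and Dgcr8 KO (red) ESCs. Mbd2 and Gatad2b move to the right by 0.65 and 0.64 relative to the median gene and Mbd3 moves to the left, while the other 7 genes stay within 0.13.

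The 6 other core subunits were read for comparison. In total RNA 1 rose (Chd3) and 2 fell (Rbbp4 and Cdk2ap2, the last named after its values were seen), beside 27.2% and 36.7% of all tested genes. Rbbp4, a histone-binding chaperone shared with other complexes, had 483, 472 and 469.7 CPM in wild-type and 338, 351 and 352 CPM in Dgcr8 KO total RNA, a log2 difference of -0.45 (SE 0.0455, adjusted p = 2.68e-10 by limma). Its 4sU change was -0.39 (SE 0.0602, adjusted p = 1.67e-06 by limma). Its paralogue Rbbp7 had 319, 329.8 and 323 CPM in wild-type and 316, 333 and 324 CPM in Dgcr8 KO total RNA, a difference with an SE of 0.0489 (adjusted p = 0.97 by limma). In 4sU RNA, however, Rbbp7 was lower in Dgcr8 KO, without overlap (-0.21, SE 0.0644, adjusted p = 0.00652 by limma). Chd3, the alternative remodeller, had 35.8, 36.7 and 36.8 CPM in wild-type and 54.4, 54.8 and 61.2 CPM in Dgcr8 KO total RNA, without overlap (0.63, SE 0.0759, adjusted p = 1.16e-08 by limma).

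Of 9 other genes listed as MBD proteins or methyl-CpG readers, 4 rose and 3 fell in total RNA, beside 27.2% and 36.7% of all tested genes. Their median change was 0.19, beside -0.09 over all tested genes. Whether each of the 9 binds methylated CpGs was not examined. The zinc finger readers Zbtb4 (1.26, SE 0.178, adjusted p = 2.71e-07 by limma) and Zbtb38 (1.21, SE 0.0654, adjusted p = 1.02e-16 by limma) rose in total RNA. Uhrf1, which recruits the maintenance DNA methyltransferase to hemimethylated DNA, fell by 1.15 in log2 (SE 0.059, adjusted p = 2.93e-17 by limma), from 682 ± 58.6 to 307 ± 10.7 CPM.

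Of 12 proteins that partner NuRD, 10 were tested, and in total RNA 3 rose and 4 fell, which is near the background shares of 27.2% and 36.7%. Zfpm1, a GATA cofactor that binds NuRD, fell most, from 20.6 ± 1.61 to 3.39 ± 0.311 CPM (-2.57, SE 0.194, adjusted p = 4.25e-13 by limma). Sall1, a zinc finger repressor, rose in 4sU RNA by 1.14 (SE 0.0466, adjusted p = 2.43e-19 by limma) and in total RNA by 0.97 (SE 0.052, adjusted p = 8.72e-17 by limma). Among 22 subunits of other complexes that hold HDAC1 or HDAC2, 8 rose and 7 fell in total RNA, beside 27.2% and 36.7% of all tested genes, and the count says nothing particular about this list. The largest of these changes was in Phf21a, a subunit of the CoREST complex, which rose from 31.5 ± 2.99 to 76.9 ± 1.91 CPM (1.29, SE 0.0784, adjusted p = 1.92e-15 by limma).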

How the data were processed

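Total and 4sU RNA of wild-type and Dgcr8 KO ESCs was sequenced in 12 libraries of 3 per group, read from the sample titles. Per the labels and file header, the authors trimmed reads with cutadapt 1.14, mapped them uniquely with STAR 2.5.3a to mm10, and counted them by strand with featureCounts 1.5.3 (submitters' processing notes). The deposited values are raw counts of reads over the exons of each gene. Unique mapping can under-count near-identical copies.

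Genes with at least 3 CPM in at least 3 libraries were kept (14033). Counts were scaled with TMM factors in edgeR 4.0.16 and fitted with voom weights in limma 3.58.1 (R 4.3.3) as library type, genotype and their interaction over all 12 libraries. The interaction term is the stability change. Benjamini-Hochberg adjustment ran over all tested genes. A gene passed at an adjusted p under 0.05 and was called if its log2 change also exceeded 1. Paralogue shares used exact two-sided permutation tests (scipy 1.17.1). Symbols, biotypes and 3′ UTRs came from GENCODE annotation of the same build, matched by stable identifier. The release was later than the one the study states for counting, so a searched 3′ UTR can differ from the counted exons. For Mta3 the searched 3′ UTR had 3090 bases and the counted exons 3058 bases. On the transcribed strand, AGCACTT or GCACTTA was searched for, and the hexamer GCACTT that both contain. Alternatives were edgeR's quasi-likelihood test, DESeq2 1.42.0, other scalings and filters, replicate blocks and leaving out each replicate (the libraries of both types with that number).

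The members and gene lists were chosen with earlier results of these data known. The text names all members, Rbbp4, Rbbp7 and Chd3, Dgcr8, and genes of the context lists that were called, at most 4 per list. Cdk2ap2 and the primed epiblast markers were named after their values were seen. The planned naming rule held 1 more gene, which is not reported here and was left out of its list. Scripts were tested on simulated counts. Counting intervals were not used, and reads carry no molecular identifiers.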

Additional observations from a re-analysis of the deposited data

Results flagged for a closer look

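For 3 members the genotype change differed between total and 4sU RNA by the interaction term of limma (adjusted p under 0.05 over all tested genes). The difference, total minus 4sU on the log2 scale, was 0.56 for Mbd2 (adjusted p = 0.00344), 0.56 for Gatad2b (adjusted p = 7.75e-06) and -0.40 for Mbd3 (adjusted p = 0.0128). The total and 4sU changes had opposite signs for Mbd3, at -0.14 and 0.26, and for Gatad2b, at 0.52 and -0.04, of which the Mbd3 change in 4sU RNA and the Gatad2b change in total RNA passed. Groups of 3 libraries were too small for a check of single libraries that stand apart.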

How the results depend on the processing

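Of the 10 members, 8 passed in total RNA, 7 in 4sU RNA and 3 in stability. Relative to the median change, 5 passed in total RNA. Leaving out 1 replicate gave 8 to 9, 5 to 6 and 2 to 3. Of 460 repeats of a single member's comparison, 421 kept the direction and the side of the threshold, 26 lost a call, 2 gained 1 and 11 changed sign. Mbd2, Mta1, Mta3, Gatad2a and Gatad2b in total RNA, and Mbd2 and Gatad2b in stability, passed in every alternative run. No member's comparison that passed changed sign in any alternative. Signs that reversed belonged to comparisons that had not passed, although the same genes passed in total RNA. In 4sU RNA these were Mta2 without wild-type replicate 3 (0.01, with -0.13 to 0.01 over the replicates left out) and Hdac2 without wild-type replicate 1 (0.0019) or Dgcr8 KO replicate 1 (0.06, with -0.08 to 0.06 over the replicates). In stability, Mta1 was 0.03 with DESeq2, 0.03 with RLE size factors, 0.0029 with upper-quartile factors and 0.03 relative to the median. Chd4 was 0.06 with DESeq2, 0.06 with RLE size factors, 0.03 with upper-quartile factors and 0.06 relative to the median.

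The median wild-type total to 4sU ratio of the members, 0.54, was 0.26 with at least 3 CPM required in all 12 libraries, 1.11 with no filter beyond 1 count, and 0.52 to 0.53 without 1 replicate, since the median gene changes with the filter. The summed member level, 535 CPM per kb in wild-type total RNA, was 519 with RLE size factors, 482 with upper-quartile factors and 498 with library size alone. All 14 paralogue shares kept their direction without division by length and without any 1 replicate, and with 3 against 2 libraries no p can fall under 0.2.

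The replicate numbers did not visibly pair wild-type with Dgcr8 KO libraries: correlations of same-numbered deviations ran from -0.103 to 0.0904. Those of same-numbered total and 4sU libraries were also weak, 0.05 to 0.133 in wild-type and 0.0203 to 0.0523 in Dgcr8 KO. That these came from 1 divided RNA sample is taken from the protocol and was not shown by the counts. With a replicate block by number, 8, 7 and 3 members passed in total RNA, 4sU RNA and stability. With same-numbered total and 4sU libraries taken as 1 divided RNA sample and used as replicate block, 4 passed in stability, Gatad2a being the addition. Low counts limit Mbd2 and Hdac1 most, with 139 to 459 reads per library.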
